A study of Drosophila melanogaster with 4 samples.

Results

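The Imp and Eip genes are Drosophila genes that carry their names because their transcripts or proteins appear after the moulting hormone 20-hydroxyecdysone is given, and 10 of them are described here: ImpE1, ImpE2, ImpE3, ImpL1, ImpL2, Eip55E, Eip63E, Eip63F-1, Eip71CD and Eip93F. They were found through the gene names of the probe sets on the array. The array names 10843 genes by at least 1 probe set of their own. Of the 13966 probe sets that are not controls of the array maker, 9 carried the symbol of 1 of these genes alone, for 7 genes. The probe sets of 2 further genes were annotated with the names of the enzymes they encode, Eip55E as Cth and Eip71CD as MsrA, which gave 11 probe sets for 9 genes. No probe set carried the name of Eip63F-1, which encodes a calcium-binding EF-hand protein, and this gene was not analysed here.

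RNA was taken from whole early (pale) pupae raised at 29 °C, in pools of 10 to 20 animals, and hybridised to 4 Affymetrix Drosophila arrays. The 2 Dop1R2 RNAi samples were UAS-dsDop1R2/+;Act5C-Gal4/+, where the actin promoter of Act5C drives an RNA hairpin that targets the dopamine receptor Dop1R2 in all tissues. The 2 control samples are labelled w1118;Act5C-Gal4/+, so by the labels both groups carried the driver. The study's methods likewise name progeny of w1118 and the driver line as controls. Legends of the study, that of its array figure included, give controls with the hairpin and the balancer TM6B in place of the driver. Which hairpin insertion was used for the arrays is not stated, no probe set carried the name Dop1R2, and the loss of its transcript could therefore not be checked on these arrays. The comparison asks how the transcripts of pupae with Dop1R2 knocked down differ from those of control pupae.

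The steroid 20-hydroxyecdysone binds the nuclear receptor pair of EcR and Ultraspiracle, which switches on a small set of early regulators, and these in turn drive later effector genes in an order that differs between tissues. Pulses of the hormone at the end of larval life and in the prepupa trigger eversion of the imaginal discs, loss of larval tissues and formation of the pupal cuticle. The Imp genes were isolated from imaginal discs as hormone-inducible transcripts on membrane-bound polysomes, E for an early and L for a late response, whereas most Eip genes were named for hormone-induced proteins or puffs.

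Each array gave 1 signal per probe set on a linear scale. Testing was limited to the 8749 probe sets (62.6%) that reached the 40th percentile of an array, a level of 29.4 to 31.0, on at least 2 of 4 arrays. Across tested probe sets, which are not independent replicates, r of the log2 signals was 0.937 within the Dop1R2 RNAi group, 0.940 within the control group and 0.843 to 0.913 for arrays of different groups. Signals of glue genes of the larval salivary gland were low on all arrays, with Sgs1, Sgs3, Sgs4, Sgs5 and Sgs7 under the filter, and summed to 70.6 and 72.2 in Dop1R2 RNAi pupae and 70.3 to 74.7 in control pupae over 6 of 7 markers. The sums over 6 of 6 haemocyte markers were 322 to 346 in Dop1R2 RNAi pupae and 478 to 535 in control pupae, with Pxn at 187 and 170 in Dop1R2 RNAi pupae, against 359 and 380 in control pupae, and Hml under the filter. The other 2 tested haemocyte markers lay higher in both Dop1R2 RNAi samples, NimC1 at 37.6 and 36.9 in Dop1R2 RNAi pupae, against 25.2 and 34.2 in control pupae, and PPO2, by the brighter of its 2 probe sets, which differ in direction, at 67.1 and 71.8 in Dop1R2 RNAi pupae, against 38.3 and 57.8 in control pupae. The lower sum is thus that of Pxn, and the median log2 fold change of the 3 was 0.34. Those over 4 of 6 gut markers, all under the filter, were 38.4 to 46.7 in Dop1R2 RNAi pupae and 56.1 to 75.9 in control pupae. Those over fat body (3 of 6 markers), muscle (4 of 8) and neurons (5 of 6) were 15647 to 16819, 8045 to 12571 and 68.2 to 91.2 in Dop1R2 RNAi pupae, against 16586 to 16860, 10679 to 12925 and 97.7 to 116 in control pupae. Gut and neuron sums did not overlap between the groups, nor did that of haemocytes through Pxn, and their part in the results was not tested. Signals of the 3' probes of the Gapdh control transcript were 3.88 and 3.90 times those of its 5' probes in Dop1R2 RNAi pupae, against 4.61 and 3.97 times in control pupae. The same ratio for eIF-4a was 3.98 and 2.82 in Dop1R2 RNAi pupae, against 4.59 and 4.24 in control pupae, and that for actin was 2.07 and 1.61 in either group, so that it went with the replicate number.

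Among the Imp and Eip genes, ImpL2 rose 3.70-fold in Dop1R2 RNAi pupae, and no gene of the group fell past the test. ImpE2 had the lower signal in both Dop1R2 RNAi samples, by 1.72-fold on average, but missed the threshold. The signals of ImpL1, Eip55E, Eip63E and Eip93F overlapped between the groups, and those of ImpE1 and ImpE3 were too dim to be tested. Of the 7 probe sets tested, 1 was called higher and 0 were called lower by limma at an adjusted p under 0.05, against 121 (1.38%) called higher and 9 (0.103%) called lower of all 8749. At an unadjusted p under 0.05 the counts were 1 higher and 1 lower of 7, against 659 and 482 of 8749, and with the two-group test that the methods name, 0 were called in either direction after adjustment over all probe sets, and 1 higher (ImpL2) and 0 lower of the 7 without it.

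**Figure D1:**
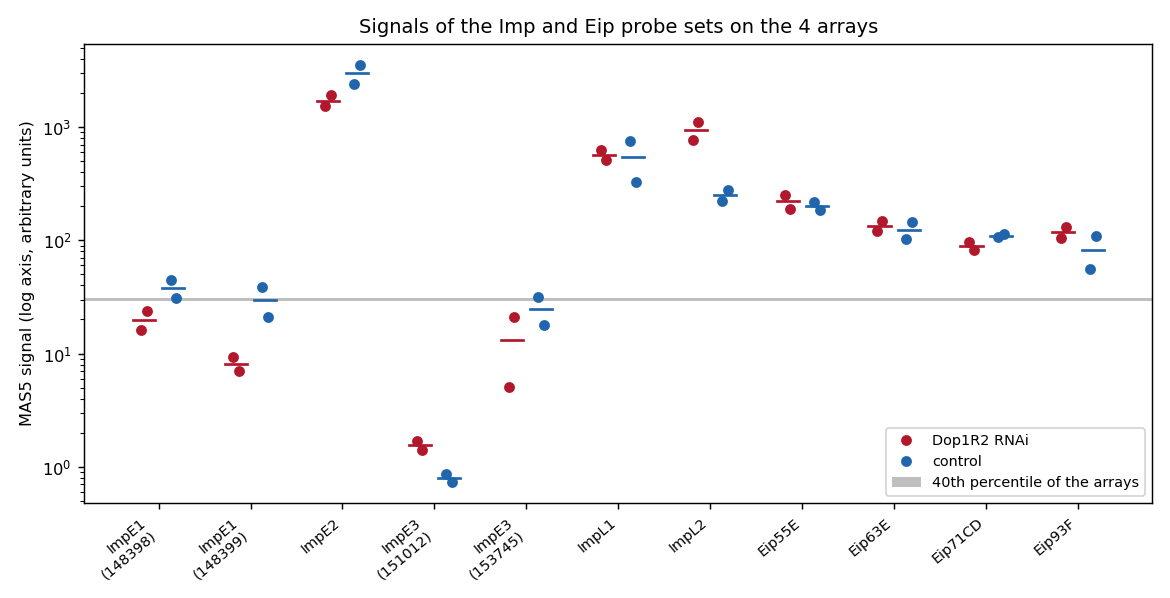
Signal of each Imp and Eip probe set (x axis) on each array (y axis, MAS5 signal on a log axis), with Dop1R2 RNAi in red to the left of control in blue, points for single arrays, short bars for the group mean and a grey band for the 40th percentile of the arrays. ImpL2 lies at 766 and 1106 in Dop1R2 RNAi pupae, above 221 and 279 in control pupae, while both ImpE1 and both ImpE3 probe sets lie at or under the grey band on at least 3 of 4 arrays. Heights of different probe sets cannot be compared, since probes differ in how brightly they bind.

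ImpL2 encodes a secreted immunoglobulin-domain protein that binds insulin-like peptides and holds back insulin signalling. Its signals were 766 and 1106 in Dop1R2 RNAi pupae, against 221 and 279 in control pupae. Both Dop1R2 RNAi samples lay well above both control samples, and the closest pair of samples still differed by 2.74-fold. The means were 936 ± 241 in Dop1R2 RNAi pupae and 250 ± 41.2 in control pupae (SD, n = 2 each). The log2 fold change was 1.89 ± 0.26 (SE), with an interval of 2.40- to 5.71-fold (95%), an unadjusted p of 0.000189 and an adjusted p of 0.0220 by limma, the 75th smallest p of all tested probe sets. The change was higher than that of 98.5% of tested probe sets. In an exact permutation test 2 arrays against 2 cannot reach a p under 0.333, so the call rests on a spread that limma shares across probe sets. The call was lost without control replicate 1 (log2 fold change 1.72, adjusted p = 0.253), without control replicate 2 (2.06, adjusted p = 0.127) and without the trend of the spread on signal (adjusted p = 0.0568). A control array left alone is assumed to vary like the Dop1R2 RNAi arrays. The arrays measure RNA of whole animals, in which more cells of a type and more RNA per cell cannot be told apart.

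The insulin pathway genes that were tested, Ilp8, InR, chico, foxo and Akt, did not pass the test. The insulin-like peptide genes Ilp2 and Ilp7 lay under the filter. Of 16 listed, 9 had a probe set and 5 were tested, with 0 called and a median log2 fold change of 0.39, against -0.039 over all tested probe sets. The insulin receptor InR had signals of 48.6 and 81.0 in Dop1R2 RNAi pupae, against 26.7 and 43.5 in control pupae (log2 fold change 0.88, adjusted p = 0.392 by limma). The groups did not overlap for InR, but the replicates of each differed by more than 1.6-fold. Ilp2, an insulin-like peptide of the brain that ImpL2 can bind, was under the filter on all arrays, at 5.53 and 9.36 in Dop1R2 RNAi pupae, against 18.1 and 5.58 in control pupae.

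ImpE2 encodes a protein secreted from the apical side of the disc epithelium as the discs evert. Its signals were 1526 and 1913 in Dop1R2 RNAi pupae, against 2425 and 3558 in control pupae. Both Dop1R2 RNAi samples lay under both control samples, at 0.429 to 0.789 of the control signal for single pairs of samples. The log2 fold change was -0.78 ± 0.24 (SE), with an interval from -1.35 to -0.22, an unadjusted p of 0.0135 and an adjusted p of 0.249 by limma, and 5.37% of tested probe sets had a lower change. With 1 array of the Dop1R2 RNAi group left out the log2 fold change was -0.62 without replicate 1 and -0.95 without replicate 2. It was -1.06 without control replicate 1 and -0.51 without control replicate 2. Limma called ImpE2 lower in the fit without Dop1R2 RNAi replicate 1 and in that without replicate 2, but not without either control array. A group left with 1 array has no spread of its own, so no p of ImpE2 is given and these calls carry no weight. The direction was the same under all 13 alternatives, but much of this was fixed in advance. As the groups did not overlap, leaving out 1 array could not turn it. Other filters, the floor, no trend, the replicate block and the methods' t-test left the estimate as it was.

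ImpE1, an early disc gene whose protein has repeats like those of the LDL receptor, was read by 2 probe sets, and neither reached the filter on more than 1 array. Probe set 148398 gave 16.3 and 23.7 in Dop1R2 RNAi pupae, against 44.4 and 30.9 in control pupae. Probe set 148399 gave 9.26 and 6.98 in Dop1R2 RNAi pupae, against 38.5 and 21.1 in control pupae. On both probe sets the Dop1R2 RNAi samples lay under the control samples, but these are dim signals. In a fit with no filter the log2 fold changes were -0.92 (interval -1.91 to 0.073, adjusted p = 0.509) and -1.83 (interval -3.04 to -0.61, adjusted p = 0.290) by limma.

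ImpE3, the third of the early disc genes, also had 2 probe sets under the filter. Probe set 151012 gave 1.70 and 1.41 in Dop1R2 RNAi pupae, against 0.859 and 0.727 in control pupae. Probe set 153745 gave 5.05 and 21.2 in Dop1R2 RNAi pupae, against 31.8 and 18.1 in control pupae. The probe sets of ImpE3 differed in direction, with log2 fold changes of 0.97 and -1.21 and adjusted p of 0.654 and 0.615 in the fit with no filter by limma, and no level can be given for this gene.

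ImpL1, a late gene of the same screen, had signals of 625 and 516 in Dop1R2 RNAi pupae, against 757 and 326 in control pupae. Both Dop1R2 RNAi samples lay between the control samples, which differed by 2.32-fold, more than the control samples did for 96.4% of tested probe sets. The log2 fold change was 0.19, with an interval from -0.73 to 1.12 and an adjusted p of 0.872 by limma. Without control replicate 2 it was -0.42, and without control replicate 1 it was 0.80. A change of 2-fold upwards thus lay inside the interval, and ImpL1 was measured with less precision than the other tested genes of the group.

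Eip93F encodes a transcription factor that acts in the death of larval salivary glands and in the switch to adult differentiation. Its signals were 105 and 131 in Dop1R2 RNAi pupae, against 55.6 and 109 in control pupae. The groups overlapped, as the higher control sample lay between the Dop1R2 RNAi samples, and the control samples differed by 1.96-fold. The log2 fold change was 0.59, with an interval from -0.24 to 1.43 and an adjusted p of 0.510 by limma, and it ranged from 0.11 without control replicate 1 to 1.08 without control replicate 2. Of 15 listed genes of autophagy and cell death, 13 were tested and 0 called, with a median log2 fold change of 0.13. The initiator caspase gene Dronc stood at 0.61 on the log2 scale (adjusted p = 0.363) and the autophagy gene Atg8b at -0.99 (adjusted p = 0.386), both by limma.

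Eip71CD, methionine sulfoxide reductase A, repairs oxidised methionine in proteins. Its signals were 96.9 and 81.4 in Dop1R2 RNAi pupae, against 107 and 114 in control pupae. Both Dop1R2 RNAi samples lay under both control samples, but the nearest pair differed by 1.10-fold. The log2 fold change was -0.31, with an interval from -0.86 to 0.24 and an adjusted p of 0.594 by limma.

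Eip55E, cystathionine gamma-lyase, makes cysteine in the last step of transsulfuration. Its signals were 251 and 191 in Dop1R2 RNAi pupae, against 219 and 187 in control pupae. The groups overlapped, and the log2 fold change was 0.11, with an interval from -0.47 to 0.70 and an adjusted p of 0.883 by limma. Of 8 other genes of sulfur amino acids and methionine repair, all 8 were tested and 0 called, with a median log2 fold change of -0.14. Cbs, which catalyses the step of transsulfuration before Eip55E, had signals of 156 and 115 in Dop1R2 RNAi pupae, against 253 and 305 in control pupae, or -1.05 on the log2 scale (adjusted p = 0.159 by limma). The groups did not overlap for Cbs, unlike for Eip55E.

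Eip63E, a cyclin-dependent kinase that acts with Cyclin Y, had signals of 120 and 149 in Dop1R2 RNAi pupae, against 104 and 144 in control pupae. The groups overlapped, and the log2 fold change was 0.13, with an interval from -0.50 to 0.76 and an adjusted p of 0.876 by limma. A second probe set that the annotation shares between Eip63E and CG10038, and which was not counted, gave 224 and 242 in Dop1R2 RNAi pupae, against 198 and 242 in control pupae (log2 fold change 0.093). Both probe sets thus overlapped between the groups. Of 8 listed cyclins and kinases 5 were tested and 0 called, and CycY, the gene of Cyclin Y, stood at -0.35 on the log2 scale (adjusted p = 0.604 by limma). The median of the 5 was 0.31.

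**Figure D2:**
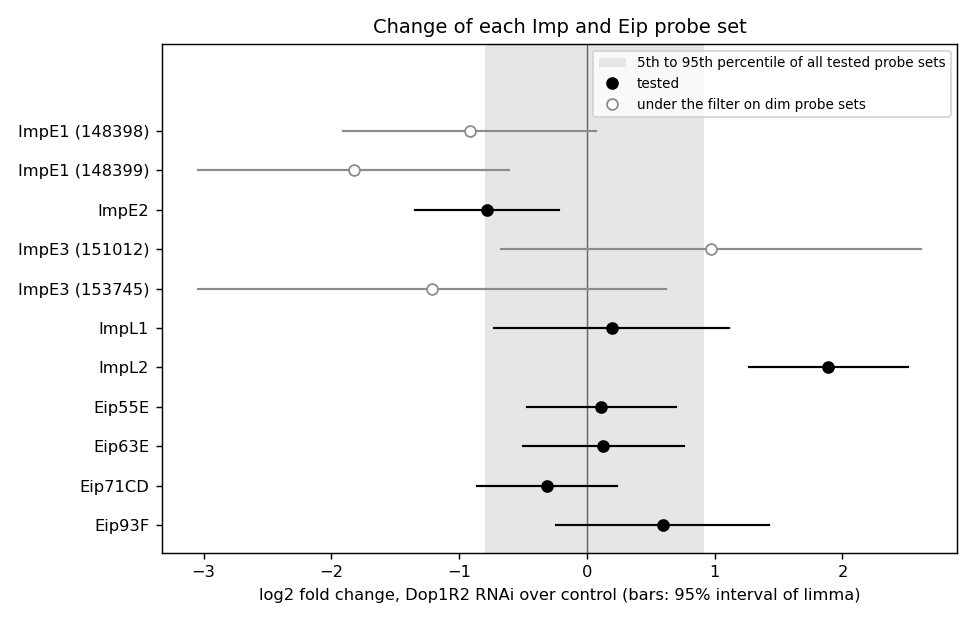
Log2 fold change of Dop1R2 RNAi over control (x axis) for each Imp and Eip probe set (y axis), with bars for limma's 95% interval, filled points for tested probe sets and open points for those under the filter, taken from a fit with no filter. The grey area spans the 5th to the 95th percentile of all tested probe sets, -0.80 to 0.92, and ImpL2, at 1.89, is the filled point outside it.

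The 7 tested genes thus spread from -0.78 for ImpE2 to 1.89 for ImpL2, with a median of 0.13 (Eip63E), against -0.039 over all tested probe sets. Of the Imp genes, ImpE2 and both ImpE1 probe sets lay lower and ImpL2 and the dim ImpE3 probe set 151012 lay higher in both Dop1R2 RNAi samples, and no test of early against late genes was made. Of the 7 probe sets, 1 lay higher and 2 lay lower in both Dop1R2 RNAi samples than in both control samples, where 21.1% and 24% of all tested probe sets did. When each array was left out in turn, the direction held for ImpL2, ImpE2, Eip71CD and Eip93F, and turned at least once for ImpL1, Eip55E and Eip63E. For ImpL2, ImpE2 and Eip71CD it could not turn, since their groups did not overlap.

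**Figure D3:**
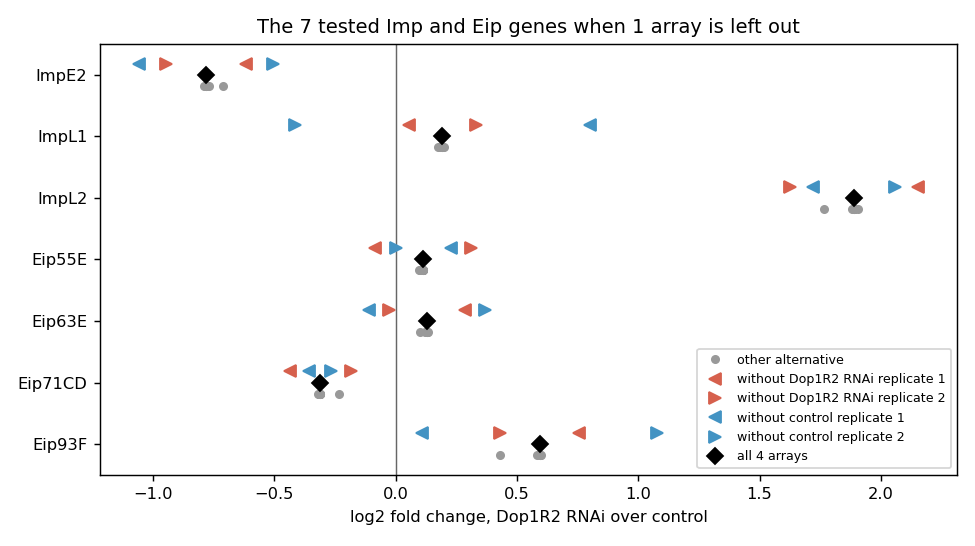
Log2 fold change of Dop1R2 RNAi over control (x axis) of the 7 tested genes (y axis) with all 4 arrays (black diamonds), with 1 Dop1R2 RNAi array left out (red triangles), with 1 control array left out (blue triangles) and under the other alternatives (grey points). ImpL2 stays between 1.62 and 2.15 whichever array is left out, and ImpL1 runs from -0.42 to 0.80.

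Other genes of the ecdysone response are given for comparison, with no test against the Imp and Eip genes. Of 18 listed receptor subunits and regulators of the cascade, 10 were tested and 0 called, with a median log2 fold change of -0.47. The nuclear receptor gene ftz-f1, which marks the prepupal period between hormone pulses, stood at 1.03 on the log2 scale (adjusted p = 0.293 by limma). Its signals were 47.8 and 53.2 in Dop1R2 RNAi pupae, against 21.3 and 28.8 in control pupae. As ftz-f1 reached the filter on the Dop1R2 RNAi arrays alone, it was tested only because it was high there. Eip78C, another nuclear receptor gene, stood at -0.58 (adjusted p = 0.380 by limma). Of 13 other hormone-dependent effectors 8 were tested, 2 rose and 0 fell, with a median of 1.23. Those that rose were the pupal cuticle genes Edg91, with 178 and 290 in Dop1R2 RNAi pupae, against 56.5 and 51.7 in control pupae (2.07, adjusted p = 0.0226), and Pcp, with 238 and 418 in Dop1R2 RNAi pupae, against 89.9 and 83.0 in control pupae (1.87, adjusted p = 0.0407). Both calls were lost when either control array was left out (adjusted p of 0.195 and 0.141 for Edg91, and of 0.291 and 0.186 for Pcp). Of 11 Eig71E genes, late genes of the salivary gland puff, 6 were tested and 5 rose, Eig71Ea, Eig71Ed, Eig71Eg, Eig71Ej and Eig71Ek, with a median of 4.51 over the 6. Of these, Eig71Ed and Eig71Ej lost the call without control replicate 1 (adjusted p of 0.210 and 0.0668) and without control replicate 2 (0.141 and 0.0538). Eig71Ed, Eig71Eg and Eig71Ef reached the filter on the Dop1R2 RNAi arrays alone, so they were tested only because they were high there. Control signals were 12.9 and 12.5 for Eig71Ed and 8.44 and 13.1 for Eig71Eg, under the filter. The share of Eig71E genes that rose and their median are therefore no measure of the whole list. Of 13 genes of ecdysteroid synthesis and uptake, 4 were tested and 0 called, with a median of 0.013.

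**Figure D4:**
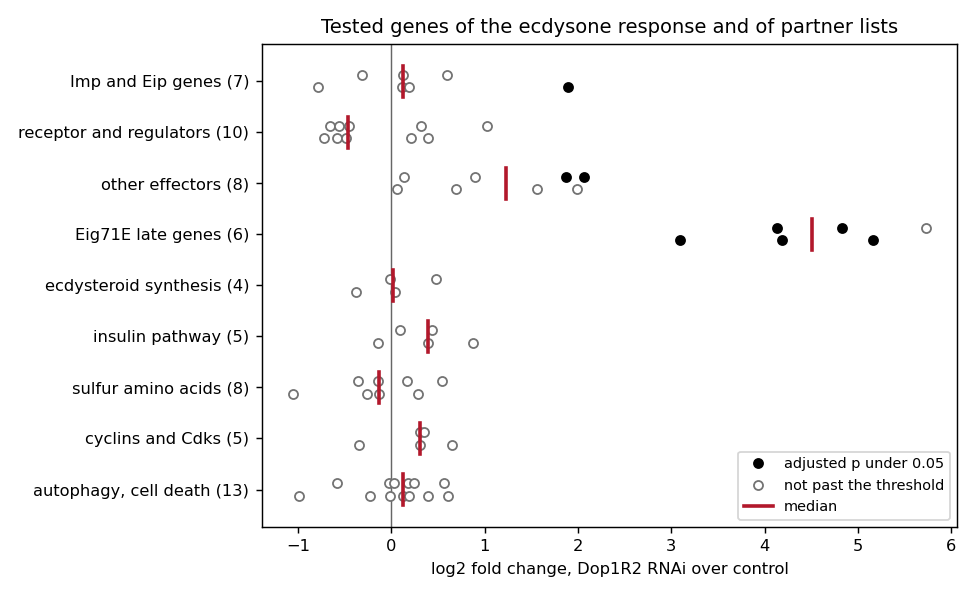
Log2 fold change of Dop1R2 RNAi over control (x axis) of the tested genes of each list (y axis, number tested in brackets), with filled points for an adjusted p under 0.05, open points for the rest and a red bar for the median. Among the Imp and Eip genes ImpL2 is the 1 filled point, whereas 5 of 6 Eig71E genes are filled. Of these, Eig71Ed and Eig71Eg were tested through their Dop1R2 RNAi arrays alone.

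The nearest measured genes on either side of each Imp and Eip gene, by the order of the reference annotation, were compared as well. Of 18 measured neighbours 14 were tested and 0 called. An unadjusted p under 0.05 by limma was reached by 3 of the 14, against 659 higher and 482 lower of all 8749. The neighbours of ImpL2 were Cpr64Ad, a cuticle protein gene, and Sqor, with log2 fold changes of 0.43 and 0.57. ImpE2 and Eip63E are themselves neighbours, with -0.78 and 0.13. Those of ImpL1, CG14107 and CG14110, had -1.91 and -1.37 (adjusted p = 0.297 and 0.289 by limma), where ImpL1 had 0.19. CG14107 gave 75.8 and 16.9 in Dop1R2 RNAi pupae, against 173 and 105 in control pupae, with 16.9 under the filter. CG14110 gave 24.1 and 16.1 in Dop1R2 RNAi pupae, against 70.1 and 37.0 in control pupae. CG14110 reached the filter on the control arrays alone, so it was tested only because it was high there. CG10359 beside Eip63E had 0.90. The neighbours of Eip63F-1, mge and CG10866, had -0.58 and -0.29.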

How the data were processed

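RNA of 2 Dop1R2 RNAi and 2 control pools was measured on Affymetrix DrosGenome1 arrays. The authors deposited linear MAS5 signal intensities, each array scaled to the same trimmed mean (100.02). The MAS5 version is not given in the sources used here. MAS5 subtracts mismatch probes, so dim signals are noisy. Of 14010 probe sets, 44 controls were left out. Signals were log2-transformed without an added constant. Probe sets that reached the 40th percentile on at least 2 arrays were tested with limma 3.58.1 (R 4.3.3, lmFit, eBayes with a trend, degrees of freedom 2 residual and 4.95 prior), with adjustment over the 8749 by the Benjamini-Hochberg method (threshold 0.05). Tables were made with Python 3.11.15, pandas 2.3.3 and numpy 2.4.6 and plots with matplotlib 3.10.9. The fit was tested in 5 runs of simulated data, with normal noise and differences given to a small part of the probe sets. The spreads were shuffled across probe sets, so the tie of spread to signal that the trend uses was absent. The shares that follow are thus those of the simulation and may differ on the real arrays. Where the groups were made to differ by a log2 of 1, limma called 15.8% of those probe sets. It called 96.4% at a log2 of 2 and 99.1% at 3. Of its calls in these runs, 8.22% were false, which is above the threshold of 0.05. Most simulated differences of 1 thus went without a call, so a gene that was not called is not shown to be unchanged.

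Gene names came from the platform's probe annotation, in which 12442 probe sets have 1 name, 327 several and 1197 none. List genes were matched through probe sets with 1 name, the brightest standing for a gene with several. The RefSeq table (Release 6 plus ISO1 MT) gave older names and neighbours. All members are named, and from the lists called genes and some of the 3 with the largest changes, plus Ilp2 and Eip78C, chosen after their values were seen. Members and lists were chosen with earlier results of these data known. The labels call the samples biological replicates, but p-values measure only the spread between 2 pools a group. The number of arrays limits the precision. Alternatives were other filters, a floor, an added constant, other scalings, no trend, a replicate block, the methods' t-test and leaving out each array. The arrays share no batch that the labels name.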

Additional observations from a re-analysis of the deposited data

How the results depend on the processing

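ImpL2 was called with the other filters, the floor, the added constant, the other scalings and the replicate block. It was not called without the trend, with the methods' t-test after adjustment or without either control array. Without the trend the count of Imp and Eip probe sets called higher was 0, and with the methods' t-test, adjusted, it was 0 too. With 1 array left out the log2 fold change of ImpL2 ranged from 1.62 to 2.15 and that of ImpE2 from -1.06 to -0.51. ImpL1 then ranged from -0.42 to 0.80, Eip55E from -0.083 to 0.31 and Eip63E from -0.11 to 0.37, each crossing 0. Over all probe sets, no filter gave 75 higher and 3 lower, the methods' t-test 467 and 323 unadjusted and 0 and 0 adjusted, and leaving out 1 array 27 to 357 and 0 to 295. A fit without 1 array leaves a group with no spread of its own. Its counts then depend on the spread of the other group and on that shared across probe sets. ImpE2 was called lower only in the fits that left out 1 Dop1R2 RNAi array. The cause of the changed counts was not tested. No other scaling, filter or constant moved a count of all calls by over 1.5 times. The replicate block gave 131 higher and 10 lower, with the same call for ImpL2 (adjusted p = 0.0145). Neither the labels nor the methods say what a shared number stands for. The deviations of same-numbered arrays correlated at 0.151, and their actin ratios were alike; a shared batch was not tested beyond this fit. The block ended the call of Pcp (adjusted p = 0.0508). Eig71Ed lost its call with no filter (adjusted p = 0.0557), with 32 added (0.0554) and without the trend (0.0505), Edg91 with no filter (0.0532) and without the trend (0.0517), and Pcp likewise (0.0740 and 0.0888). The signals of ImpE1 and ImpE3 lay near background, which limits what can be said of them.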
